A study of Mus musculus with 75 samples.

Results

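The genes described here are 10 mouse genes whose products are made mainly by secretory and absorptive cells of the intestinal lining and act on gut bacteria: Lyz1, Defa17, Defa24, Mptx2, Itln1, Ang4, Reg3b, Reg3g, Mptx1 and Retnlb. They were picked by symbol because earlier fits of these same libraries showed them to differ between gut regions and plexuses, so their levels, differences and calls in untreated mice describe that choice and are no independent test of it. All 10 symbols were rows of both count tables, among 21051 and 21076 symbols. The study sequenced 75 Smart-seq2 libraries of cells labelled enteric glia (EGC), the support cells of the nerve plexuses in the gut wall, from adult mice. All groups carried a green fluorescent reporter transgene. The column names of the count tables mark the first and second sets as WT, with no allele of Gpr37 named. The first set was untreated and covered the myenteric plexus (MP), between the muscle layers, and the submucosal plexus (SMP), beneath the epithelium, of the small intestine (6 and 6 libraries) and the colon (5 and 5). The second set came from MP 2 h after a single intraperitoneal injection of LPS (lipopolysaccharide, a bacterial endotoxin, 2 mg/kg) or PBS, with 4 libraries for each treatment and region. The third came from MP 24 h after the same injections in Gpr37WT mice (wild type) and Gpr37-/- mice (knockout). It held 6 PBS and 4 LPS libraries of wild-type small intestine, 4 and 5 of wild-type colon, 4 and 5 of knockout small intestine and 5 and 4 of knockout colon. How the cells were isolated is not given in the sources used here.

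Paneth cells sit at the base of small-intestinal crypts and release granules of lysozyme, alpha-defensins and other antibacterial proteins, and the colon of healthy mice has none. Goblet cells of both regions secrete mucus and, in the colon, the resistin-like protein RELM-beta. Absorptive enterocytes make the Reg3 lectins, whose expression is known to follow bacterial contact and signalling through MyD88 and interleukin-22.

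Library totals were 2547296 to 9002546 counts in untreated mice, 1990744 to 7883251 at 2 h and 2882539 to 33283346 at 24 h. The level of 3 counts, used as a floor, was 0.329 to 1.11, 0.359 to 1.46 and 0.0933 to 1.09 CPM (counts-per-million after TMM scaling) in the 3 sets, and floors and intervals of this kind cover counting error only. All 7 glial markers (Sox10, S100b, Gfap and others) had counts in every untreated group. Their summed level was 1325 to 2847 CPM in the 11 untreated MP libraries and 97.0 to 1419 CPM in the 11 SMP libraries, highest in colon SMP library M3. The 10 epithelial markers (Epcam, Cdh1, Vil1 and others) summed to 2126 to 11462 CPM in SMP and to 24.0 to 514 CPM in MP, except in 1 colon MP library (F3, female mouse 3) with 3826 CPM. The 8 immune markers summed to 25054 to 152192 CPM in small-intestinal SMP and to 1224 to 55196 CPM in colon SMP, against at most 3840 CPM in MP. SMP libraries, where most members were high, thus also held more immune RNA than MP libraries, but for colon SMP library M3 at 1224 CPM, and more epithelial RNA, but for colon MP library F3. The part of either in the results was not tested. In bulk samples, fewer cells of a type cannot be told apart from less RNA per cell. Gpr37, the gene deleted in the knockouts, was at most 0.802 CPM in the 18 knockout libraries. In the 19 libraries labelled wild type it reached 17.4 CPM, but 3 of them were at 0, namely the LPS colon libraries of mice 5 and 8 and the LPS small-intestinal library of mouse 3.

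The first pair of sequences shows how alike the 2 alpha-defensin members are. Both genes lie in the alpha-defensin cluster of chromosome 8 (GRCm38, GENCODE M21), Defa17 at chr8:21655780-21656735 and Defa24 at chr8:21734494-21735471, both on the plus strand. Each has a coding sequence of 279 bases without the stop codon, of which 267 (95.7%) are the same in both. Capitals mark the 12 bases that differ.
Defa17: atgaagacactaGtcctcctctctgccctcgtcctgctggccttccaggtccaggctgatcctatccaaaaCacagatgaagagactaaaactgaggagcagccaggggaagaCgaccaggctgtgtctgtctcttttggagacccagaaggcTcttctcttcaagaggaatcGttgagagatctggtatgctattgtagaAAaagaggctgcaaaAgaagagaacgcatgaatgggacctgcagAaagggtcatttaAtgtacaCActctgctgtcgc
Defa24: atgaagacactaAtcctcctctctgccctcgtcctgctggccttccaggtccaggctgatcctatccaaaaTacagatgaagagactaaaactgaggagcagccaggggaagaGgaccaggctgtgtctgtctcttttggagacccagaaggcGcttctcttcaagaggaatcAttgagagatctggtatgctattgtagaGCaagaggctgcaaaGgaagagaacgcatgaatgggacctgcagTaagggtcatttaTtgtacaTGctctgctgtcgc
The coding sequence of Defa17 is identical over all 279 bases to that of Defa3, and 92% of all 50-base windows of the Defa17 transcript occur in another gene. For Defa24 the share is 28.1%, with Defa30 the nearest gene (98.6% of coding bases identical). How the authors' counting treated such reads is not given in the sources used here, so values of these 2 members may include or lack reads of their copies. The windows shared with another gene were 17.9% for Mptx1 and 18.0% for Mptx2, all of them shared by these 2, 16.1% for Lyz1, all with Lyz2, and at most 4.7% for the other 5 members.

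The second pair is shown because Mptx1 and Mptx2, genes of chromosome 1 whose coding sequences are 91.9% identical, were found in different regions of the gut. These are the 250 bases before the RefSeq start of each gene, read from the RefSeq promoter table (GRCm38.p6). The Mptx1 stretch, chr1:174330268-174330517 on the plus strand, ends next to the GENCODE start at 174330518. The Mptx2 stretch, chr1:173277757-173278006 on the minus strand, runs into the GENCODE gene, which starts at 173277777 on that strand. The 2 stretches are thus offset. Aligned, 198 of 272 positions (72.8%) were the same, with the offset ends counted as different. Capitals mark bases that differ or lie outside the alignment.
Mptx1: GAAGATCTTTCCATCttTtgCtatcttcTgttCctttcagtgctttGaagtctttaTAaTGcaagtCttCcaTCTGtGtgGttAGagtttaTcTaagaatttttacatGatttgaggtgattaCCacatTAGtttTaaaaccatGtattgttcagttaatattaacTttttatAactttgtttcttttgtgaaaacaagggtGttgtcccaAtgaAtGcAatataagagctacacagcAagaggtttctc
Mptx2: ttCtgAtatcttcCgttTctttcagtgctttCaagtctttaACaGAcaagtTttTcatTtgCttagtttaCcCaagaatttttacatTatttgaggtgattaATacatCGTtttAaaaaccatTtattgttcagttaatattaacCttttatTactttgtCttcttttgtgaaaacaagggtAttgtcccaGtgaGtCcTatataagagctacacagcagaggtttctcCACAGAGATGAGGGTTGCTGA
Of the 10 members, 7 had an entry in that table.

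In the small intestine the members of the Paneth cell granule were far higher in SMP than in MP libraries of untreated mice. Lyz1 (chr10:117287797-117292868), which encodes the lysozyme of Paneth cells, was at a median of 3032 CPM in SMP (549 to 12892, n = 6) and 21.7 CPM in MP (0.668 to 56.4, n = 6). The lowest SMP library was thus above the highest MP library. Defa24, which encodes a cryptdin peptide that damages bacterial membranes, was at 6645 CPM (781 to 27971) in SMP and 36.7 CPM (0.445 to 216) in MP. Defa17, with the reservation above, was at 201 CPM (27.9 to 1141) and 0.802 CPM (0 to 5.88). Defa3, the copy with the same coding sequence, was at 27.5 CPM (1.75 to 147) in SMP and had at most 1 count in a library of any other untreated group.

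Mptx2 (chr1:173274382-173277777), a pentraxin found in Paneth cells, was at a median of 734 CPM (59.2 to 3551) in small-intestinal SMP and 0.454 CPM (0 to 13.2) in MP. Itln1 (chr1:171518122-171535294), a lectin that binds sugars of bacterial surfaces, was at 1691 CPM (425 to 5468) and 14.5 CPM (0 to 53.2). Both followed the order of Lyz1, with no overlap between the plexuses. Ang4 (chr14:51763878-51773590), a ribonuclease with antibacterial activity, was at 800 CPM (73.2 to 3505) and 5.48 CPM (0 to 26.0), also without overlap.

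The Reg3 genes, both on chromosome 6, whose lectins act on Gram-positive bacteria (Reg3g) or belong to the same family (Reg3b), followed the same order with a smaller gap. Reg3b (chr6:78370657-78373466) was at 1710 CPM (543 to 4863) in small-intestinal SMP and 36.0 CPM (6.23 to 71.2) in MP. Reg3g (chr6:78466269-78468872) was at 1371 CPM (527 to 3253) and 16.3 CPM (5.12 to 40.1). On the log2 scale the difference between SMP and MP was 5.67 ± 1.03 (SE) for Reg3b and 6.13 ± 1.02 for Reg3g, against 7.00 ± 1.20 to 8.30 ± 1.31 for the other 6 members named so far. Those 8 members were called higher in SMP by edgeR's quasi-likelihood test (Benjamini-Hochberg adjusted p under 0.05 over all 14090 genes), where 22.3% of all genes were called higher. The members were chosen from this contrast, so the count only describes it. The 2 exceptions in the small intestine were Mptx1 and Retnlb, which reached 47.1 and 13.7 CPM in MP, against 10.4 and 3.81 CPM in SMP.

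**Figure D1:**
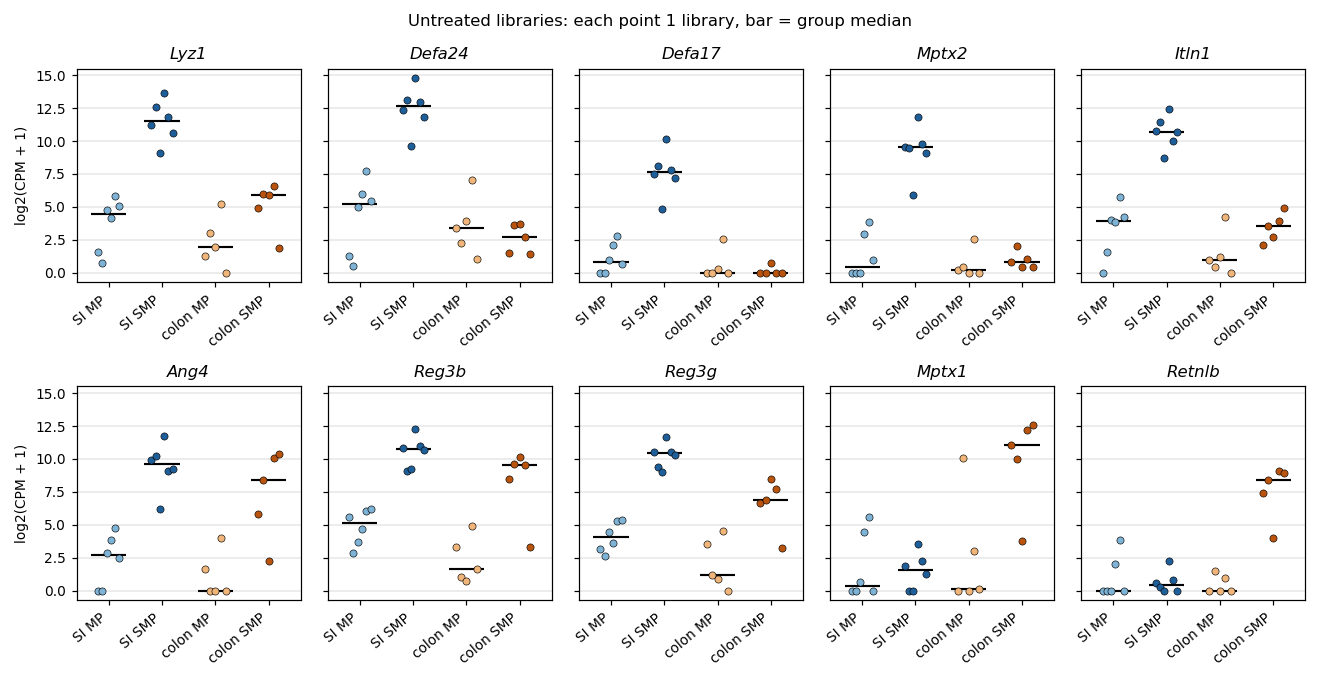
Level of each member in untreated libraries, as log2(CPM + 1) on the vertical axis, for small-intestinal (SI) and colon MP and SMP; each point is 1 library and the bar is the group median. Lyz1, the defensins, Mptx2 and Itln1 are high in SI SMP, Mptx1 and Retnlb in colon SMP, and Ang4, Reg3b and Reg3g in both, with single MP libraries raised (Mptx1 at 1078 CPM in colon MP).

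Colon SMP carried a different pair. Mptx1 (chr1:174330518-174332873), the mucosal pentraxin of the large bowel, was at 2133 CPM in library F1, 1025 in F2, 12.8 in F3, 4709 in M1 and 6032 in M3. In small-intestinal SMP it was at most 10.4 CPM (median 2.04, n = 6). Retnlb (chr16:48816856-48818892), which encodes the goblet-cell protein RELM-beta, was at 166, 344, 15.0, 552 and 484 CPM in the same 5 colon libraries. Its highest value in small-intestinal SMP was 3.81 CPM, so the regions did not overlap for either gene, and F3 was the lowest colon library for both.

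The granule genes were low in colon SMP. Lyz1 was at a median of 60.4 CPM (2.66 to 92.8, n = 5), Defa24 at 5.55 CPM (1.71 to 12.3), Itln1 at 10.7 CPM (3.33 to 29.8) and Mptx2 at 0.723 CPM (0.380 to 3.02). Defa17 was at 0 in 4 of the 5 libraries and at 0.634 CPM in F3. Lyz2, the close relative made by macrophages that shares 16.1% of the windows of Lyz1, was at 3782 CPM (115 to 5877) in colon SMP and 5802 CPM (1383 to 9318) in small-intestinal SMP. Between the regions of SMP, 5 of the 10 members (Lyz1, Defa17, Defa24, Mptx2 and Itln1) were called lower in the colon, where 1.36% of all genes were, and 2 (Mptx1 and Retnlb) higher, where 3.82% were. These counts restate the choice of the members, and nothing is read from them. The log2 difference of colon minus small intestine ran from -6.53 ± 1.34 (SE) for Lyz1 to -10.76 ± 1.50 for Defa17, and was 9.82 ± 2.42 for Mptx1 and 8.41 ± 1.36 for Retnlb.

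Ang4, Reg3b and Reg3g were present in SMP of both regions. Ang4 in colon SMP was at 55.8 CPM in F1, 336 in F2, 3.68 in F3, 1076 in M1 and 1328 in M3, within the small-intestinal range but for F1 and F3. Reg3b was at 347, 774, 1132, 756 and 8.73 CPM and Reg3g at 99.1, 115, 348, 206 and 8.35 CPM in the same libraries. The regional log2 differences were -1.04 ± 1.25 for Ang4, -1.67 ± 0.92 for Reg3b and -3.22 ± 0.96 (SE) for Reg3g, and none of the 3 was called. Reg3g was called in an edgeR fit of the compared groups alone and by DESeq2.

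Within the colon, 4 members were called higher in SMP than in MP (Ang4, Retnlb, Reg3b and Reg3g), where 10.7% of all genes were, again on a contrast that served to choose them. Retnlb was at 0 in 3 of 5 colon MP libraries and at most 1.75 CPM, and Ang4 was at 0 in 3 and at most 14.8 CPM. Mptx1 was not among them because of the epithelium-rich library F3, with 1078 CPM in MP against at most 6.95 CPM in the other 4. Its log2 difference was 3.68 ± 1.98 (SE) with that library, and 9.62 with it and the replicate number as a block, also not called. Without that library the log2 difference of Mptx1 was 10.90, and Mptx1 was called. Itln1 and Lyz1 were called as well without colon MP library M2, which held 17.8 and 35.4 CPM of them. Between the regions of MP no member was called (0 of 10 by edgeR, 2 at an unadjusted p under 0.05 and 0 by DESeq2), where 3.19% of all genes were called. Of all 14090 genes, 2339 had an unadjusted p under 0.05. Without colon MP library M2 there was 1 call, Itln1, which had a log2 difference of -4.77 in that fit, and 9 of 10 had an unadjusted p under 0.05. M2 was the highest colon MP library for 8 of 10 members, so leaving it out had to lower their colon levels. The members were chosen from these libraries, so nothing is read from either count.

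In small-intestinal SMP all 10 members were highest in library M1, which also had the highest epithelial sum of that group (10762 CPM). Library F3 was the lowest for 8 of the 10, for Retnlb in a tie of 2 libraries at 0. Yet the epithelial sum of F3, 2296 CPM, was above that of F1 (2126 CPM). The 5 members of the small-intestinal pattern and Ang4 moved together across the 6 libraries. Lyz1 spanned a 23.5-fold range, while the ratio of Defa24 to Lyz1 within a library varied 1.61-fold, that of Defa17 2.09-fold, Ang4 3.08-fold, Mptx2 3.27-fold and Itln1 3.74-fold. The ratio of Reg3b to Lyz1 varied 12.7-fold and that of Reg3g 9.07-fold, and that of the epithelial sum 10.3-fold. These ratios come from 6 libraries that share their scaling with every gene, and they were not tested.

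In colon SMP the members fell into separate courses. Library F3 was the lowest for Mptx1, Retnlb and Ang4 and for the epithelial sum (2978 CPM), and the highest for Reg3b and Reg3g. Library M3 was the reverse, with the highest Mptx1 and Ang4, the lowest Lyz1, Reg3b and Reg3g, the highest epithelial sum (11462 CPM) and the lowest immune sum (1224 CPM against 27582 to 55196 CPM). Between these 5 libraries Mptx1 spanned a 471-fold, Ang4 a 361-fold and Reg3b a 130-fold range, against 3.85-fold for the epithelial sum.

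**Figure D2:**
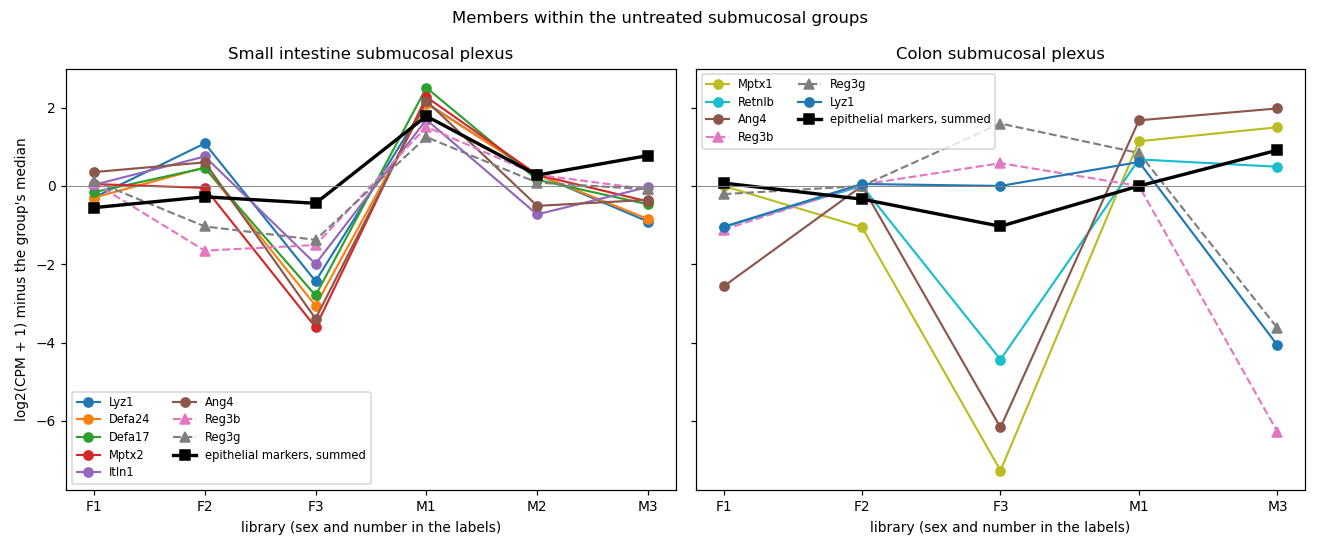
Level of the members in each untreated SMP library as log2(CPM + 1) minus the group's median (vertical axis), by library (horizontal axis, sex and number in the labels), small intestine on the left and colon on the right; the black line is the sum of 10 epithelial markers. On the left all lines peak at M1 and the solid lines dip together at F3; on the right Mptx1, Retnlb and Ang4 dip at F3 while Reg3b, Reg3g and Lyz1 dip at M3.

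Low levels of the members were seen in untreated MP too, and 1 library of each region held most of them. Library M2 was the highest for 8 of 10 members in small-intestinal MP, with 216 CPM of Defa24 and 56.4 CPM of Lyz1. In colon MP, library M2 was again the highest for 8 of 10, with 134 CPM of Defa24, 35.4 CPM of Lyz1, 17.8 CPM of Itln1 and 4.84 CPM of Defa17. The epithelial sums of these libraries were 433 and 154 CPM. The other 2 members in small-intestinal MP, Reg3b and Reg3g, were highest in M3, whose acinar markers summed to 60381 CPM against 34.4 to 1528 CPM in the other 5.

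Other genes of the same cells were taken from lists, chosen with earlier results of these data known. Calls on them describe these libraries and are no independent test of the members' pattern. The 21 other alpha-defensin symbols summed to a median of 3174 CPM in small-intestinal SMP and to 19.5 CPM in MP, 1.90 CPM in colon SMP and 2.62 CPM in colon MP. Only 8 of them passed the filter on low counts, which they did through small-intestinal SMP, so no count of calls is given. Defa30 averaged 2088 ± 1882 CPM (SD, n = 6) in small-intestinal SMP and 1.60 ± 1.60 CPM (n = 5) in colon SMP. Of the other Paneth-cell genes, 3 of 5 tested were called higher in small-intestinal SMP than MP, where 22.3% of all genes were, and 2 of 5 were called lower in colon than small-intestinal SMP, where 1.36% were. Mmp7, the protease that activates the defensins, averaged 160 ± 141 CPM (n = 6) in small-intestinal SMP and 0.758 ± 0.609 CPM (n = 5) in colon SMP. Clps and Pnliprp2, which the pancreas also makes, went the other way in 1 small-intestinal MP library (M3), at 4555 and 759 CPM against at most 349 and 142 CPM in SMP. Of 12 goblet-cell genes, 8 were called higher in small-intestinal SMP (22.3% of all genes) and 4 in colon SMP (10.7% of all genes) than in the MP of the same region.

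The genes most like Lyz1 over the 22 untreated libraries, by Pearson correlation of log2 CPM, were AY761184 (0.92), Defa29 (0.91), Prap1 (0.90) and Defa21 (0.90), of which 3 are alpha-defensins or their relatives. Those most like Retnlb were Saa1 (0.93), an acute-phase protein, Sprr2a3 (0.91), Ttll6 (0.91) and Atp12a (0.91), an ion pump of the colon epithelium. These are descriptions over libraries that share their depth and their scaling, among 14078 genes compared. The 3 alpha-defensins or relatives passed the filter through small-intestinal SMP, where Lyz1 was also high. Their correlations with it therefore restate that group difference.

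After LPS the members were examined in MP, where their levels were low. At 2 h 4 members passed the filter (Lyz1, Defa24, Reg3b and Reg3g), and none was called for LPS in the small intestine, where 1.1% of all 13107 genes were called, or in the colon, where 0.778% were. None of the 4 had an unadjusted p under 0.05 in either region, and DESeq2 called 0. Reg3b in the small intestine was at 2.65, 15.6, 142 and 29.8 CPM with PBS and at 7.10, 18.9, 23.1 and 28.6 CPM with LPS. Reg3g was at 0.221, 5.85, 44.6 and 3.59 CPM and at 6.69, 6.03, 9.75 and 3.97 CPM. The groups overlapped for both, and the highest value of each came from PBS replicate 3, whose 6 pancreatic acinar markers (Prss2, Cpa1, Pnlip and others) summed to 6663 CPM. LPS replicates 1 and 4 had acinar sums of 2197 and 4079 CPM. Replicate 1 had the lowest Reg3b of its group (7.10 CPM), with 6.69 CPM of Reg3g. Replicate 4 had the highest Reg3b (28.6 CPM) and the lowest Reg3g (3.97 CPM). In the colon Reg3b was at 0.700 to 22.1 CPM with PBS and 0 to 8.92 CPM with LPS.

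Lyz1 at 2 h was at 2.40 to 25.3 CPM with PBS and 0.402 to 31.0 CPM with LPS in the small intestine, and at 0.667 to 15.3 and 0 to 15.2 CPM in the colon. Defa24 was at 1.68 to 13.6 and 0.795 to 5.03 CPM in the small intestine and at 0.667 to 13.2 and 0 to 29.2 CPM in the colon. Retnlb had no count in any of the 16 libraries, which allows up to 0.359 to 1.46 CPM by library. The other 5 members were too low for the fit, with Mptx1 at up to 20.0 CPM in PBS colon and Defa17, Ang4, Mptx2 and Itln1 at 9.17 CPM or less in every library. Neither the difference of the LPS effect between regions nor that between regions with PBS gave a call among the 4, where 0% and 0.221% of all genes were called. Neither gave an unadjusted p under 0.05 or a DESeq2 call among them.

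At 24 h 8 members passed the filter, and none was called for LPS in any of the 4 comparisons by edgeR. Of all 14903 genes, 7.17% were called in wild-type small intestine (where the median log2 difference of all genes was -0.13), 7.96% in wild-type colon, 0.718% in knockout small intestine and 0.718% in knockout colon. An unadjusted p under 0.05 was reached by 0, 2 (Ang4 and Retnlb), 2 (Reg3b and Reg3g) and 0 of the 8 in that order. It was reached by 3229, 3695, 1709 and 1844 of all 14903 genes, so nothing is read from these member counts. DESeq2 called 0, 0, 4 and 0.

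The largest member values of the 24 h set were those of the Reg3 genes in knockout small intestine. After LPS, Reg3b was at 1760 CPM in mouse 10, 2.29 in mouse 11, 26971 in mouse 17, 0 in mouse 21 and 23.8 in mouse 6, and after PBS at 0.495, 0.423, 7.28 and 1.06 CPM in mice 12, 15, 20 and 7. Reg3g was at 492, 3.76, 9131, 0.961 and 0 CPM after LPS and at 0, 0, 1.84 and 0.397 CPM after PBS. Mice 10 and 17 were thus far above the other 3 LPS mice, whose values overlapped those of PBS. The log2 difference was 11.21 ± 3.51 (SE) for Reg3b and 11.50 ± 3.59 for Reg3g (edgeR, adjusted p = 0.136 and 0.133 over all genes). DESeq2 called both (adjusted p = 1.89e-05 and 0.000679), and it also called Ang4 and Retnlb, which had no count in the 5 LPS libraries and at most 0.265 and 0.338 CPM in the PBS libraries.

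Pancreatic acinar markers moved with these values. In mice 10 and 17 of that group, 5 of the 6 markers had counts, with sums of 9638 and 76399 CPM, and in the other 3 mice the sums were 7.32 to 31.5 CPM. Mouse 20, with 40468 CPM of acinar markers, also held the highest Reg3b of knockout PBS small intestine, at 7.28 CPM against 0.423 to 1.06 CPM. Mouse 19, with 24658 CPM, held that of wild-type PBS colon, at 163 CPM against 0.0965 to 2.88 CPM. Reg3b was also at 386 CPM in PBS knockout colon (mouse 7) and at 299 and 368 CPM in PBS wild-type small intestine (mice 14 and 23), at acinar sums of 59.7, 20.7 and 21.8 CPM. The part of pancreatic RNA in these values was not tested. Without the 4 libraries with an acinar sum above 1000 CPM, the log2 difference in knockout small intestine was 3.68 for Reg3b and 3.75 for Reg3g (edgeR, Benjamini-Hochberg adjusted p = 1 for both). Without mouse 17 alone it was 7.54 and 7.60.

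In wild-type small intestine Reg3b was at 0.641 to 368 CPM after PBS (median 21.5, n = 6) and at 0.185, 5.18, 30.3 and 149 CPM after LPS, and Reg3g at 0 to 245 CPM (median 10.4) and at 0, 1.69, 11.0 and 46.3 CPM. The LPS groups lay within the PBS range for Reg3g and reached below it for Reg3b. The difference between knockout and wild type in the LPS effect was 12.57 ± 4.03 (SE) for Reg3b and 13.46 ± 4.17 for Reg3g on the log2 scale and was not called by edgeR (Benjamini-Hochberg adjusted p = 1.00 for both), in a contrast where 0% of all genes were called and 578 genes, 2 of them members, had an unadjusted p under 0.05. DESeq2 called both (adjusted p = 0.00625 and 0.035). The edgeR values were 8.90 and 9.56 without knockout LPS mouse 17, and 5.05 and 5.71 without the 4 libraries of high acinar sums.

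**Figure D3:**
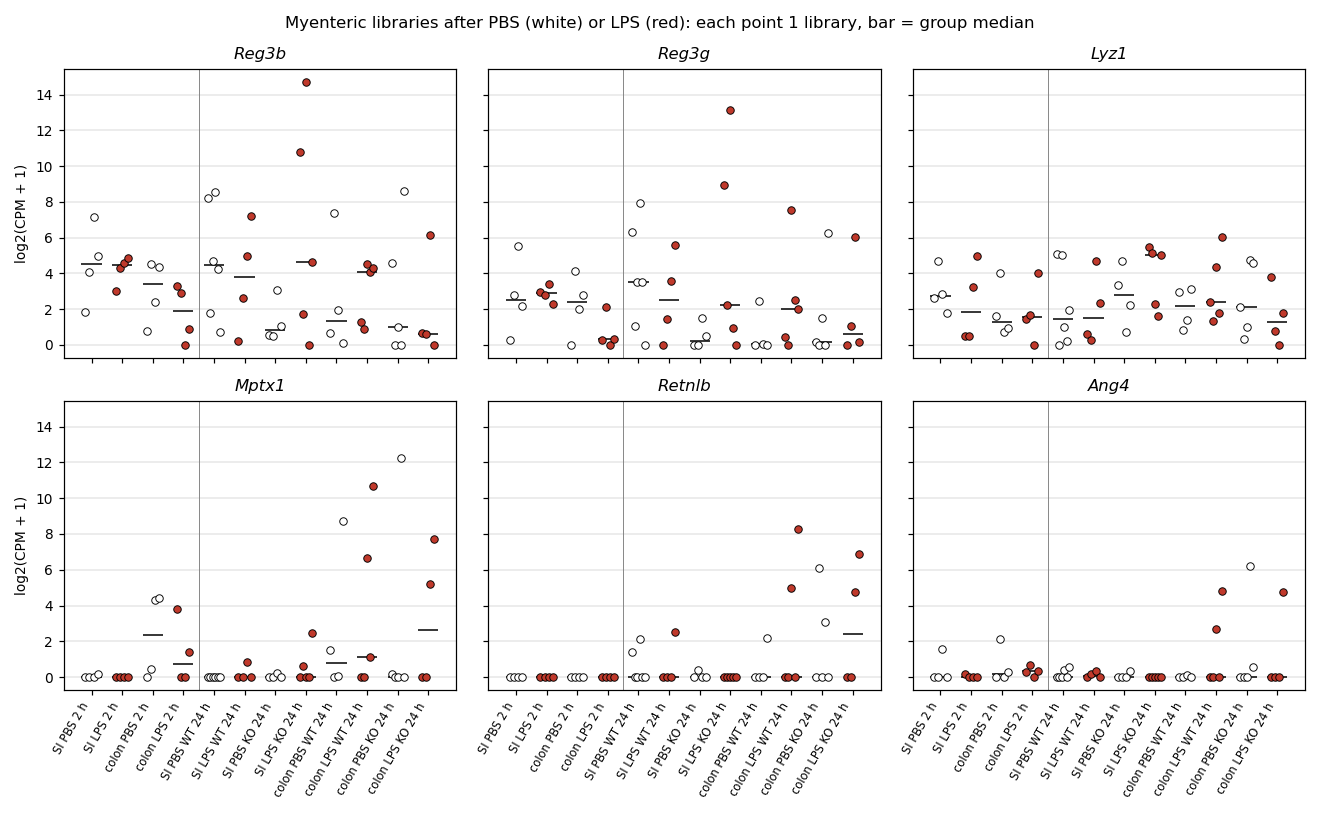
Level of 6 members in MP libraries 2 h (left of the grey line) and 24 h after PBS (white) or LPS (red), as log2(CPM + 1) on the vertical axis; each point is 1 library and the bar is the group median, with WT for wild type and KO for knockout. PBS and LPS points overlap or touch in each pair of groups, and single libraries stand far above, such as Reg3b at 26971 and 1760 CPM in knockout small intestine and Mptx1 at 4886 CPM in PBS knockout colon.

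In the colon at 24 h, high values of Mptx1, Retnlb, Ang4 and the Reg3 genes were seen in a few libraries of either treatment. Mptx1 in the wild type was at 1.82, 0, 0.0351 and 416 CPM after PBS (mice 14, 19, 22 and 24) and at 0, 0, 100, 1.14 and 1673 CPM after LPS (mice 13, 16, 3, 5 and 8). In knockouts it was at 0.121, 0, 0, 4886 and 0 CPM after PBS (mice 1, 12, 15, 20 and 7) and at 0, 0, 36.5 and 206 CPM after LPS (mice 11, 17, 2 and 21). The groups overlapped in both genotypes.

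Retnlb in wild-type colon was at 0, 0, 0 and 3.47 CPM after PBS and at 0, 0, 30.0, 0 and 309 CPM after LPS, a log2 difference of 6.28 ± 2.80 (SE; edgeR quasi-likelihood, Benjamini-Hochberg adjusted p = 0.158). Ang4 had at most 0.0702 CPM in PBS wild-type colon and was at 0, 0, 5.42, 0 and 27.0 CPM after LPS, at least 23.6-fold higher on average than a level of 3 counts in each PBS library (edgeR, Benjamini-Hochberg adjusted p = 0.101). Both rested on mice 3 and 8. Those 2 colon libraries had epithelial sums of 9399 and 15152 CPM, against 11.0 to 30.5 CPM in the other 3, and both had Gpr37 at 2 counts or fewer, as had colon mouse 5 with no count of Retnlb or Ang4. The small-intestinal library of mouse 8 held 100 counts of Gpr37, and that of mouse 3 none, so whether these libraries match their genotype labels was not tested. The other 3 LPS libraries had no count of either gene. In knockout colon Retnlb was at 0, 66.7, 0, 7.31 and 0 CPM after PBS and at 0, 0, 26.3 and 117 CPM after LPS, and Ang4 passed 0.451 CPM in 1 PBS library (mouse 20, 72.7 CPM) and in 1 LPS library (mouse 21, 26.1 CPM).

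Reg3b in wild-type colon was at 0.606, 163, 2.88 and 0.0965 CPM after PBS and at 1.46, 0.839, 22.4, 15.9 and 18.4 CPM after LPS, and the groups overlapped. Reg3g was at 0, 4.42, 0.0351 and 0 CPM after PBS and at 0.364, 0, 188, 4.77 and 2.96 CPM after LPS, with the high value again in mouse 3. Its log2 difference was 5.21 ± 2.81 (SE; edgeR, Benjamini-Hochberg adjusted p = 0.25). In knockout colon Reg3b reached 386 CPM after PBS (mouse 7) and 70.2 CPM after LPS (mouse 2), and Reg3g 76.6 and 64.9 CPM in the same mice.

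The epithelial sum ran beside Mptx1 in the colon but not in the small intestine. All 3 MP libraries of the 24 h set with an epithelial sum above 2000 CPM came from the colon and had 100 to 4886 CPM of Mptx1. In the small intestine 6 libraries had sums of 1037 to 1904 CPM with Mptx1 at 0.187 CPM or less. Colon mouse 12 (PBS, knockout) had a sum of 783 CPM with no Mptx1 count and the 66.7 CPM of Retnlb given above.

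**Figure D4:**
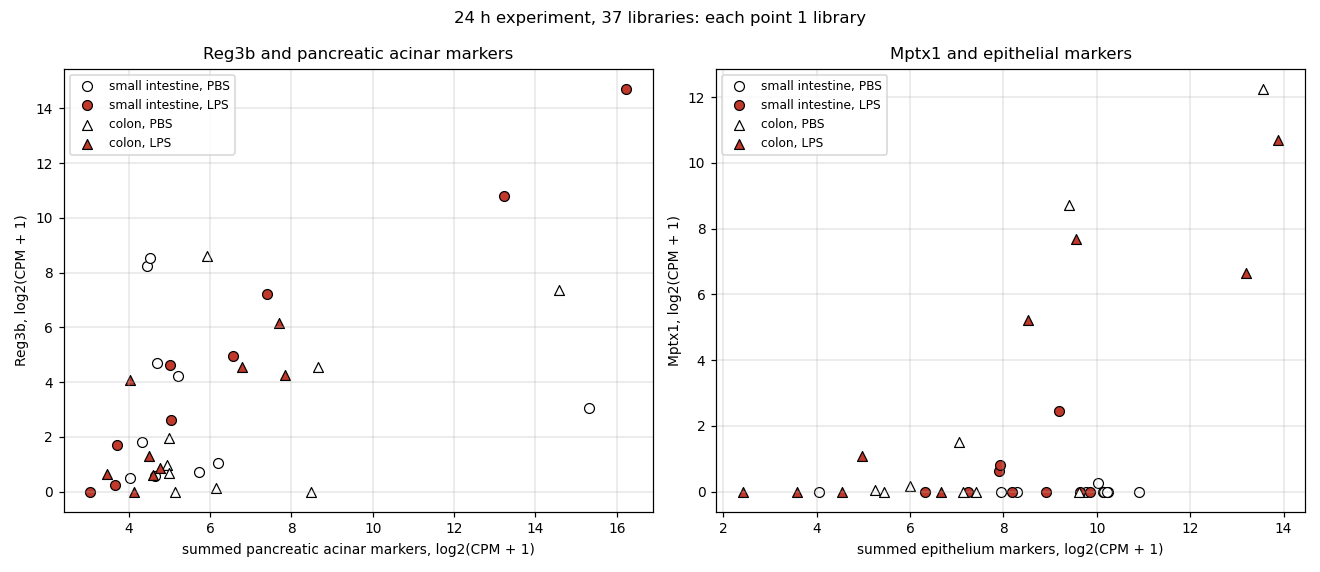
Reg3b against the summed pancreatic acinar markers (left) and Mptx1 against the summed epithelial markers (right) in the 37 libraries 24 h after PBS (white) or LPS (red), both axes as log2(CPM + 1); circles are small intestine and triangles colon. The 2 highest Reg3b values (26971 and 1760 CPM) lie at acinar sums of 76399 and 9638 CPM, and the library at 40468 CPM has 7.28 CPM of Reg3b, the highest of its group; Mptx1 above 5 CPM is seen in colon libraries alone.

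Between colon and small intestine with PBS at 24 h, no member was called in wild-type mice, where 0.141% of all genes were called, or in knockouts, where 0.0805% were. DESeq2 called 0 in both. An unadjusted p under 0.05 was reached by 1 and 3 members, and by 1001 and 993 of all 14903 genes. Mptx1 had no count in the 6 wild-type small-intestinal PBS libraries and averaged 104.5 ± 208 CPM (SD, n = 4) in the colon, at least 310-fold above a level of 3 counts in each (edgeR, Benjamini-Hochberg adjusted p = 0.375). This rested on mouse 24, since the fitted log2 difference of 12.92 was 5.33 without it. In knockouts its log2 difference was 13.34 ± 4.34 (SE; edgeR, Benjamini-Hochberg adjusted p = 0.464), and apart from colon mouse 20 no library of either region passed 0.187 CPM. Retnlb had 7.31 ± 3.11 (adjusted p = 0.613 by the same edgeR fit), and 4.43 to 10.04 with 1 library left out. Ang4 averaged 14.6 CPM in the colon, at least 56.2-fold above a level of 3 counts in the small intestine (adjusted p = 0.522 by the same edgeR fit), with mouse 20 at 72.7 CPM and the next library at 0.451 CPM. In wild-type mice Retnlb averaged 0.868 CPM in the colon and 0.841 CPM in the small intestine.

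Lyz1 and Defa24 stayed low at 24 h in all 8 groups. Lyz1 was at most 43.7 CPM in the small intestine and 64.4 CPM in the colon, with medians of 1.56 to 4.37 CPM in the colon groups and 1.94 to 31.5 CPM in the small-intestinal groups. Defa24 reached 14.6 CPM in wild-type LPS small intestine (mouse 3) and 15.5 CPM in knockout LPS colon (mouse 2), and its group medians were 1.77 CPM or less. Itln1 reached 6.31 CPM. Defa17 and Mptx2 did not pass the filter, with at most 0.513 and 1.02 CPM in any library. The difference of the LPS effect between regions in the wild type and between genotypes in the colon gave no call among members, where 0% of all genes were called in each. Ang4 had an unadjusted p under 0.05 in both, as had 1126 and 2009 of all genes. Its log2 differences were 8.14 ± 3.66 and -8.51 ± 3.44 (± SE, edgeR, Benjamini-Hochberg adjusted p = 0.605 and 0.275), and DESeq2 called 0 in both. Their size is fitted and not measured, since no library of wild-type PBS colon held more than 3 counts of Ang4.

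Of the genes that carry signals known to induce these members, a minority rose with LPS in the same libraries. Of 10 tested at 24 h, 4 rose in wild-type small intestine (7.17% of all genes called), 3 in wild-type colon (7.96%), 0 in knockout small intestine (0.718%) and 1 in knockout colon (0.718%). At 2 h 2 of 9 rose in the small intestine (1.1%) and 1 of 9 in the colon (0.778%). The shares in brackets count all genes called in either direction, so the share of all genes that rose was no larger than these. Their median log2 difference at 24 h was 1.42 in wild-type small intestine and 0.64 in knockout small intestine, against -0.13 and -0.05 over all genes. Neutrophil markers rose beside them: 4 of 4 were called higher in wild-type small intestine, where their sum was at a median of 0.231 CPM after PBS (0 to 1.09) and 736 CPM after LPS (7.41 to 812), and 1 of 4 was in each of the other 3 comparisons at 24 h. Their part in the values of these signals was not tested. Stat3, the transcription factor downstream of interleukin-22, rose by 1.44 ± 0.19 (SE) on the log2 scale in wild-type small intestine and by 1.00 ± 0.21 in wild-type colon at 24 h (edgeR, Benjamini-Hochberg adjusted p = 8.12e-06 and 0.00308). Myd88, the adaptor of the LPS receptor, rose by 2.75 ± 0.41 in the small intestine at 2 h (edgeR, Benjamini-Hochberg adjusted p = 0.00102), and Il4ra, a receptor for interleukin-4 and interleukin-13, by 1.82 ± 0.35 there and 1.77 ± 0.35 in the colon (adjusted p = 0.00981 and 0.0191 by the same test).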

How the data were processed

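The 2 tables of the authors hold deposited raw read counts per gene symbol, whole numbers with 1 column per library, and were analysed as deposited. Per the submitters' processing notes, the build was GRCm38 and the tools included Trim Galore 0.4.4, STAR 2.5.3 and DESeq2, with no role or order. The counter, annotation and use of strand are not given in the sources used here. Genes were filtered (filterByExpr, leaving 14090, 13107 and 14903 in the untreated, 2 h and 24 h sets), scaled by TMM and fitted with edgeR 4.0.16 in R 4.3.3 (glmQLFit, glmQLFTest), with all groups of a set in 1 model. Adjusted p-values are Benjamini-Hochberg over all genes of a set, called under 0.05, and SE was derived from the log2 fold change and its F statistic. Fold changes are fitted, and CPM is scaled by TMM. Where all libraries of 1 of 2 compared groups held 3 or fewer counts, a bound is given. Differences between LPS effects are given as fitted, without a bound. The same test was run on 13 comparisons after PBS or LPS and on 4 in untreated mice, where its calls only describe how the members were chosen. DESeq2 1.42.0 and other alternatives are in the closing section. Figures were drawn with matplotlib 3.10.9. Groups come from the labels, which give mouse numbers at 24 h only. Elsewhere the labels do not say that replicates are separate animals, so p-values may measure technical spread. At 24 h colon and small intestine of 1 mouse share its number, so the numbers pair the regions there, with mean correlations of 0.0914 (wild-type PBS) and 0.12 (knockout PBS) between same-mouse deviations from the group means. All 143 replicate pairs differed beyond counting error. Smart-seq2 carries no molecular identifiers. The method was tested on simulated data. Members and lists were chosen with earlier results of these data known. Every member is named, and of other lists at most the 3 genes of highest average CPM per set. One gene is not reported here.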

Additional observations from a re-analysis of the deposited data

Results flagged for a closer look

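A library stood apart from the others of its group, by Dixon's ratio on log2(CPM + 1), in 8 of 80 member-and-group combinations whose highest library reached 10 CPM. The critical values are set for 1 in 20 in normal data, or 4 of 80. That is no chance rate here. The 10 CPM limit favours groups with a single high library, many values lie at 0, and members of 1 library are not independent. No excess is read from the count. In untreated mice, Itln1 was highest in colon MP library M2 at 17.8 CPM (next 1.30 CPM), and Reg3b was lowest in colon SMP library M3 at 8.73 CPM (next 347 CPM). In knockout PBS colon at 24 h, Mptx1 was at 4886 CPM and Ang4 at 72.7 CPM in mouse 20 (next 0.121 and 0.451 CPM), and Defa24 was at 11.9 CPM and Reg3g at 76.6 CPM in mouse 7 (next 0.41 and 1.87 CPM). In knockout LPS colon, Ang4 was at 26.1 CPM in mouse 21, with the other 3 at 0, and Reg3b at 70.2 CPM in mouse 2 (next 0.564 CPM). Mouse 20 had the highest epithelial sum of its group (12042 CPM) and mouse 7 the highest immune sum (5099 CPM), and their part in these values was not tested.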

How the results depend on the processing

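Alternatives were RLE size factors, DESeq2, no filter, sex as a covariate, the compared groups alone, each library left out, a replicate block, and at 24 h the division of mice at number 10. Left out after seeing the data were libraries with acinar sums above 1000 CPM, or MP libraries with epithelial sums above 2000 CPM. For the 13 tested comparisons the number of members called stayed at 0 in all 152 fits that left out 1 library. Among the others, DESeq2 gave 4 in knockout small intestine with LPS and 2 for the genotype difference there, and the rest gave 0. In untreated mice, leaving out 1 library moved the myenteric regional count from 0 to between 0 and 1. Among mice numbered 11 and above, the log2 differences of wild-type colon with LPS turned to -6.25 for Retnlb and -1.83 for Ang4, and those of Ang4 between regions and between genotypes to -1.81 and 0.35. Without epithelium-rich libraries Retnlb turned to -6.04, and Mptx1 between regions in PBS knockouts to -0.88 (-0.92 to 16.04 with 1 library left out, lowest without colon mouse 20 and highest without small-intestinal mouse 20). These reversals measure no direction: without those libraries wild-type colon held at most 2 counts of Ang4 and no count of Retnlb after LPS, and Mptx1 was at most 0.187 CPM in PBS knockouts without colon mouse 20. None was called.

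With the replicate number as a block, colon SMP against MP gave 6 members in place of 4 (Itln1 and Lyz1 added), the other 3 untreated comparisons gave 0, 7 and 8 as before, and no tested comparison gave a call. Same-numbered untreated and 2 h libraries share only a number: their deviations correlated above 0.1 in 7 of 20 untreated pairs and 3 of 12 at 2 h. At 24 h LPS and PBS share no mouse, so the block was fitted to the regional comparisons. Members of a few counts per library, such as Retnlb at 2 h, are limited by depth.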
